A study of Mus musculus with 9 samples.

Results

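The mitochondrial respiratory chain was followed through its own genes in mouse bone marrow-derived macrophages. Its members were taken by symbol as the genes beginning with Nduf, Uqcr, Cox4 to Cox8 or Atp5, the Sdha, Sdhb, Sdhc and Sdhd genes, and the mitochondrially encoded mt-Nd, mt-Co, mt-Cytb and mt-Atp genes. The rule found 106 of the 24607 genes in the table, 93 in the nucleus and 13 on the mitochondrial chromosome. Among the 93 are 3 pseudogenes and 2 other genes with an Atp5 symbol, which were assigned to no complex but count as members. All groups were macrophages of CX3CR1-gfp/+ mice, in which green fluorescent protein sits at the locus of the fractalkine receptor, grown from marrow with macrophage colony-stimulating factor at 50 ng/ml. They were kept alone (monoculture), together with dorsal root ganglion sensory neurons (co-culture), or with transforming growth factor beta (TGF-β) at 0.02 ng/ml, each labeled with a time of 5 days, in 3 libraries per group. Cells were sorted on CD11b and CD64 before RNA was extracted, and the mice's age and sex are not given in the sources used here. Per the series' design the macrophages came from 3 mice, but it does not say whether each mouse gave cells to every group, so the p-values measure only the spread between these libraries.

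The respiratory chain moves electrons from NADH (complex I) and succinate (complex II) through ubiquinone to complex III, then through cytochrome c to complex IV, which reduces oxygen. Complexes I, III and IV pump protons across the inner membrane, and ATP synthase (complex V) uses the gradient to make ATP. Most subunits are encoded in the nucleus and a small set of core subunits on mitochondrial DNA, so both genomes supply each complex except complex II. Macrophages are known to change their use of this chain with activation.

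Depth ranged from 46.8 to 308.8 M reads (M, 1e6). Values are normalized counts, the deposited unit, in which a single read stood for 0.346 to 2.27 depending on the library. Every library had macrophage genes at high levels, with Itgam (encoding CD11b) at 88127 to 126129 and Csf1r at 77169.6 to 93742 normalized counts. Of 9 tested macrophage markers 3 rose and 1 fell in co-culture, where 15.9% of all genes rose and 15% fell. With TGF-β 2 of these markers rose, beside 1.13% of all genes. In the co-culture libraries 15 fibroblast markers summed to 66.0 to 93.7 reads per 1e6, against 0.231 to 1.25 in the other 6 libraries. Of these, 13 passed the filter on low values (at least 10 normalized counts in 3 libraries), 11 of them only through the co-culture libraries, so their calls are not counted here. The glial genes Ngfr and Sox10 had 101 to 261 normalized counts in co-culture against 0 to 0.775 elsewhere, and passed the filter in the same way. The sum of the glial markers was 45.4 to 49.9 reads per 1e6 in co-culture and 47.1 to 59.6 elsewhere. Among sensory neuron markers Nefm had 2.77 to 31.9 and Snap25 0 to 1.99 normalized counts in co-culture, and Elavl4 was at 0 there. Tubb3 rose in co-culture (87.5 to 102 against 8.06 to 55.2 in monoculture). Uchl1 fell, from 8659 to 9986 in monoculture to 431 to 562, and this 1 gene makes up most of the sum of the 14 neuron markers in the table (5.28 to 7.23 reads per 1e6 in co-culture and 73.3 to 94.6 elsewhere). By the Y-linked genes Ddx3y, Eif2s3y, Kdm5d and Uty, replicate 1 of every group was male and replicates 2 and 3 female. If the 3 mice gave all libraries, at least 1 of them thus gave cells to every group. The fit by group alone does not model such sharing. The female co-culture libraries held 0.504 and 0.503% of the summed Y-linked counts of the male one. In the other female libraries this share was at most 0.0107%. The part of RNA from other cells in the results below was not tested. In such bulk samples fewer cells of a type and less RNA per cell cannot be told apart.

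Few respiratory chain genes passed the test in co-culture. Of 103 tested members, 7 rose and 4 fell against monoculture, which is 10.7% of them, whereas 30.8% of all 16328 tested genes were called (15.9% higher and 15% lower). Ndufa4l2, 1 of the 7, passed the filter on low values only through the co-culture libraries, so its call adds no support and 6 others rose. Members not tested were Cox8b, Atp5l-ps1 and Atp5l-ps2, which did not reach 10 normalized counts in 3 libraries. The test was limma on log2 of the normalized count plus 10, with Benjamini-Hochberg adjustment over all tested genes and a call at adjusted p under 0.05. Fold changes below are log2 values on this scale with their standard error (SE), and the added 10 shrinks those of low genes. Among genes with a mean of at least 1000 normalized counts, 35.2% of all genes and 9.09% of 77 nuclear members were called. The median fold change of the members was 0.13, beside 0.03 for all genes. Without monoculture 1 the number that rose was 15. It was 3 without monoculture 2, and 4 without co-culture 1 or co-culture 3. The shares of all genes called in these fits are not reported here.

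With TGF-β 1 member rose and none fell in 103 by limma (0.971%, beside 2.52% of all genes, 1.13% higher and 1.39% lower), and 33 had an unadjusted p under 0.05. The median was 0.22, beside -0.01 for all genes, and 92 of 103 members had a positive fold change. Against TGF-β, co-culture had 1 member higher (Ndufa4l2, with the same limit) and 8 lower (8.74%, beside 25.3% of all genes, 13.4% higher and 11.9% lower; median -0.14). Both comparisons with monoculture share its libraries, and the third shares the remaining ones, so their values are given side by side and not as separate support. In the count of members whose 3 libraries did not overlap, 21 were higher in co-culture than in monoculture (23.3% of all genes were) and 7 lower (21.7% of all genes). For TGF-β these numbers were 13 higher and 0 lower, beside 7.27% and 9.64% of all genes. Against TGF-β, co-culture had 3 higher and 21 lower, beside 21.3% and 19.8% of all genes.

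**Figure D1:**
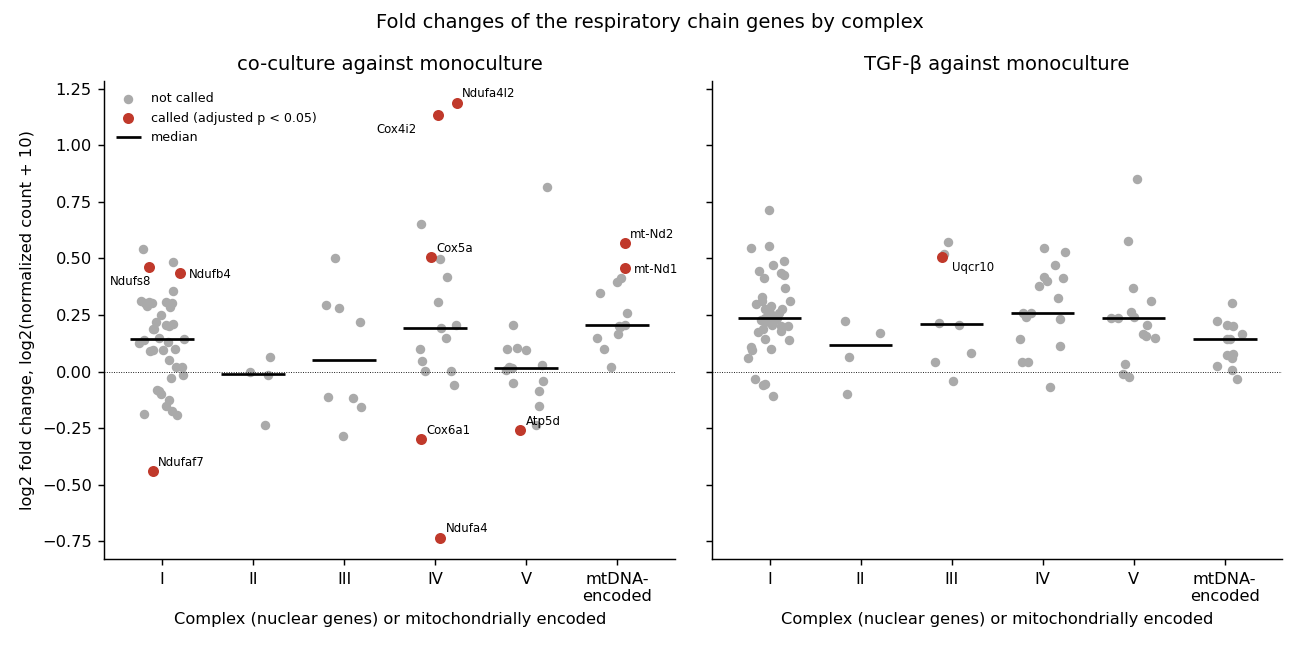
Log2 fold change (y axis) of tested nuclear members by complex and of the 13 mitochondrially encoded members (x axis). Panels show co-culture (left) and TGF-β (right) against monoculture. Tested members assigned to no complex (1 pseudogene and 2 other genes with an Atp5 symbol) are not plotted. Points are genes, red ones passed adjusted p under 0.05 and black lines are medians. In co-culture the red points lie on both sides of 0, from -0.73 for Ndufa4 to 1.19 for Ndufa4l2, whereas with TGF-β nearly all points lie above 0 and 1 is red.

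A complex IV subunit and its paralog changed in opposite directions in co-culture. The 3 values given for a group, here and below, are normalized counts in replicates 1 to 3. Ndufa4 was first described as a complex I subunit and is now known as a subunit of cytochrome c oxidase, complex IV. It had 2830.1, 1819.9 and 2832 in monoculture, 1511, 1459.7 and 1425 in co-culture and 3050.5, 3273 and 2507 with TGF-β. All 3 co-culture libraries lay below the other 6. Ndufa4 fell by 0.73 ± 0.16 (log2 ± SE; adjusted p = 0.00269) against monoculture and by 0.99 ± 0.16 against TGF-β (adjusted p = 3.77e-04). With TGF-β the fold change was 0.26 ± 0.16 (adjusted p = 0.491). Both decreases were called in all 21 alternative analyses.

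AA467197 (also Nmes1), no member by symbol, encodes a small paralog known to take the place of Ndufa4 in complex IV of inflamed cells. It was named after its values had been seen. It had 490.4, 274 and 449 in monoculture, 3294, 4754 and 5967 in co-culture and 977, 983 and 657 with TGF-β. Each co-culture library exceeded every other library. AA467197 rose by 3.50 ± 0.27 in co-culture (adjusted p = 5.73e-06). With TGF-β its fold change was 1.11 ± 0.27 (adjusted p = 0.0744). That contrast was called in 8 of 21 alternatives, among them edgeR (adjusted p = 0.0397 with TMM factors) and DESeq2, and their adjusted p ran from 1.54e-04 to 0.409. Levels per kilobase, here and below, divide by all annotated exons of a gene merged, which can exceed the length of a transcript. On that scale AA467197 amounted to 0.173 to 0.199 of Ndufa4 in monoculture and 0.301 to 0.368 under TGF-β. In co-culture it amounted to 2.50 to 4.81 of Ndufa4. By this measure the higher of the pair was Ndufa4 in 6 libraries and AA467197 in the 3 co-culture libraries. Normalized counts not divided by length had the same order. Merged exons had 1381 bases in Ndufa4 and 1203 in AA467197, while the longest coding transcript of Ndufa4 had 610. The size of the ratio depends on this choice of length. This ratio was chosen after its values were seen and has no test.

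The promoter of Ndufa4 and the microRNA that the AA467197 transcript carries are shown because this pair moved in opposite directions. Ndufa4 lies at chr6:11900292-11907497, minus strand and AA467197 at chr2:122636986-122641191, plus strand (mm10). Upstream of the annotated starts of Ndufa4 the sequence below (RefSeq, GRCm38.p6) held none of the 3 motifs described further on. The hairpin of Mir147 (chr2:122640803-122640881) lies within an exon of AA467197 and in untranslated sequence of it. Its listed mature arm is printed with the seed, bases 2 to 8, in capitals. The longest protein-coding transcript of Ndufa4 held 0 sites complementary to this seed. Such a site was present in 26.8% of 21877 protein-coding genes.
Ndufa4, chr6:11907498-11907647, minus strand: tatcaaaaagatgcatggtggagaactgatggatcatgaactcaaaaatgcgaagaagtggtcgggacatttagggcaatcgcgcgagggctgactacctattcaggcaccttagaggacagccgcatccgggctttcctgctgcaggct
mmu-miR-147-5p: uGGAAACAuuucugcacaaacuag
Mature microRNAs were not measured in these libraries, and the other arm of the hairpin was not examined here.

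The second Ndufa4 paralog, Ndufa4l2, is known as a gene induced by low oxygen and is strong in the mural cells of vessels. It had 42, 14 and 25 reads in co-culture (14.6, 10.9 and 16.6 normalized counts), 0, 0 and 2 reads in monoculture and 0 in all 3 TGF-β libraries. A count of 0 allows up to 3 reads, which is 2.25 to 6.82 normalized counts in the TGF-β libraries. Ndufa4l2 reached 10 normalized counts in the co-culture libraries alone and so entered the test only through them. Its co-culture level was 9.99 to 15.2 counts per kilobase, where Ndufa4 had 1032 to 1094. The fibroblast markers described above were high in the same libraries, and their part in this low signal was not tested.

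**Figure D2:**
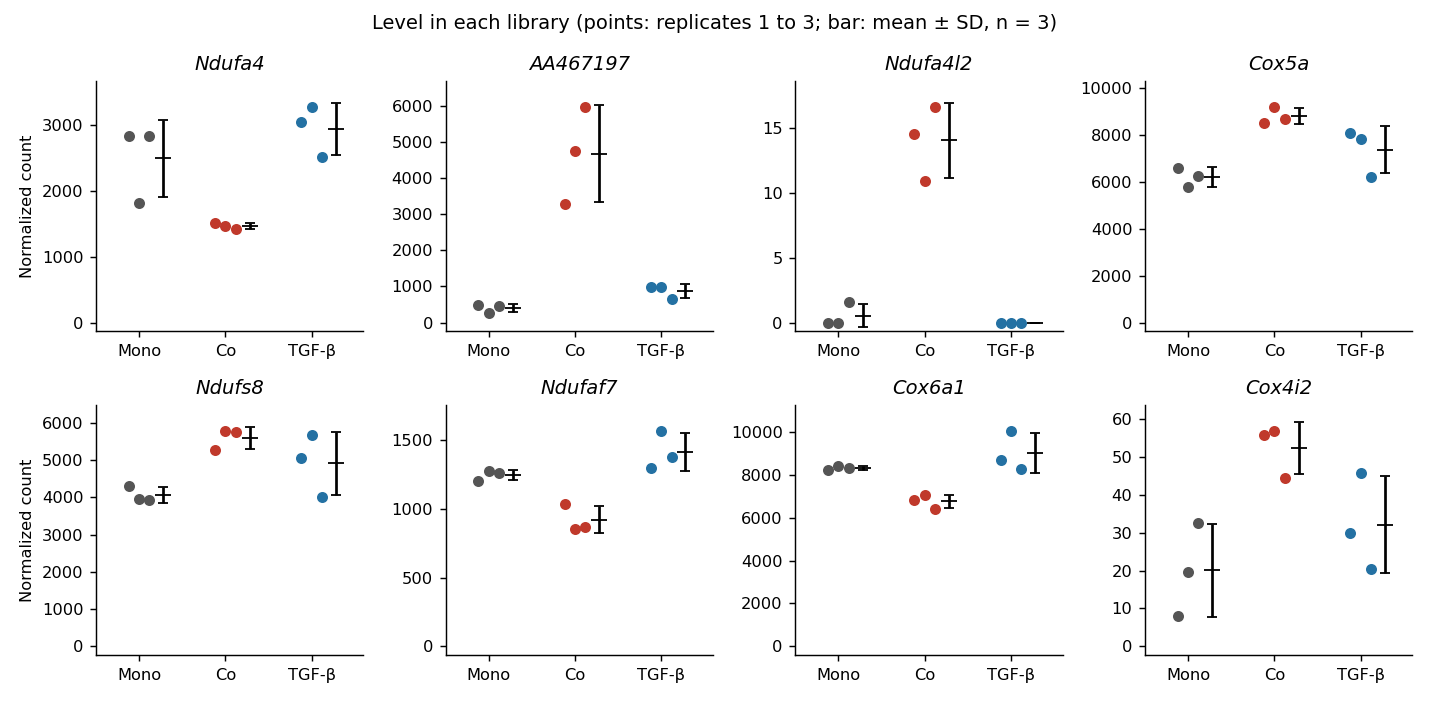
Normalized counts (y axis, each panel with its own scale from 0) in each library for Ndufa4, its paralogs AA467197 and Ndufa4l2, and 5 further called members, by group (x axis). Points are replicates 1 to 3 and bars give mean ± SD, n = 3. Ndufa4, Ndufaf7 and Cox6a1 are lowest in co-culture, while AA467197 and Ndufa4l2 are highest there; for Cox5a, Ndufs8 and Cox4i2 all 3 co-culture points lie above the monoculture points.

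Complex IV had 3 nuclear members higher, Ndufa4l2 among them, and 2 lower of 17 tested in co-culture. That is 29.4%, beside 30.8% of all genes. The median fold change was 0.19, and 0.10 to 0.23 with single libraries left out (lowest without monoculture 2). Cox5a, an accessory subunit that binds beside Cox4, had 6600.4, 5769 and 6259 in monoculture, 8535, 9203 and 8697 in co-culture and 8073, 7849 and 6215 with TGF-β. Every co-culture library was above the rest. Cox5a rose by 0.51 ± 0.10 (adjusted p = 0.00131), a call kept in all 21 alternatives; with TGF-β the value was 0.24 ± 0.10 (adjusted p = 0.265). Gm26631, an antisense transcript of the Cox5a locus, shares 29.2% of the 50-base stretches of Cox5a and had 8.12 to 33.9 normalized counts. How reads that match both were assigned is not stated.

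Cox6a1, the ubiquitous form of subunit VIa, had 8242, 8408 and 8329.9 in monoculture, 6824, 7057 and 6427 in co-culture and 8694, 10078 and 8306 with TGF-β. Its co-culture values lay below all others. Cox6a1 fell by 0.30 ± 0.08 against monoculture (adjusted p = 0.0142) and by 0.41 ± 0.08 against TGF-β (adjusted p = 0.00230). The first of these calls was lost without co-culture 3 (adjusted p = 0.0602) and with libraries scaled to nuclear reads (adjusted p = 0.0968). The muscle form Cox6a2 had 38.1, 42.2 and 34.6 normalized counts in co-culture and 26, 11.5 and 27.1 in monoculture, without overlap, but did not pass the test (0.65 ± 0.34, adjusted p = 0.178).

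Cox4 anchors the regulatory side of the enzyme and exists as the common Cox4i1 and as Cox4i2, known from lung and from low oxygen. Cox4i1 was level between monoculture (23165 to 23847) and co-culture (23491 to 23845), with a fold change of 0.00 ± 0.09. Cox4i2 had 8.12, 19.6 and 32.5 in monoculture, 55.8, 57 and 44.5 in co-culture and 30.1, 45.9 and 20.5 with TGF-β, so co-culture stood above monoculture but overlapped TGF-β. It rose by 1.13 ± 0.35 (adjusted p = 0.0256). The call was lost without monoculture 1, monoculture 2, co-culture 1 or co-culture 2 (adjusted p 0.0546 to 0.102), and by edgeR. Per kilobase it made up 0.373 to 0.471% of Cox4i1 in co-culture and 0.0689 to 0.268% in monoculture. As for Ndufa4l2, the fibroblast markers were high in the same libraries.

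The remaining isoform pairs were dominated by their ubiquitous forms and none was called. Cox7a2 had 3572 to 7399 normalized counts and its muscle form Cox7a1 152 to 282. Cox7a2l, which joins complexes III and IV into supercomplexes, had a co-culture fold change of 0.00 ± 0.08, and Cox7a2 and Cox7a1 had 0.05 ± 0.17 and -0.06 ± 0.22. Cox8a had 6910.0 to 10255 while the muscle form Cox8b had at most 5 reads. Cox6b1 stood at 6188 to 11925 and the testis form Cox6b2 at 4.54 to 35.2. Cox7b had 9636 to 15561. Cox7b2 and Cox8c were not analysed here.

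Complex I is the entry point for NADH and the largest of the complexes. Among its 43 nuclear members, 2 rose and 1 fell in co-culture (6.98%, beside 30.8% of all genes), with a median of 0.15. Ndufs8, a core subunit that carries iron-sulfur clusters, had 4303, 3961 and 3928 in monoculture, 5260.3, 5789 and 5757 in co-culture and 5041, 5673 and 4006 with TGF-β. All co-culture libraries lay above monoculture, and the TGF-β libraries overlapped both. Ndufs8 rose by 0.46 ± 0.11 (adjusted p = 0.00524), also in all 21 alternatives. Its TGF-β value was 0.26 ± 0.11 (adjusted p = 0.286).

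Ndufaf7, a methyltransferase needed for an early step in complex I assembly, moved the other way. It had 1205, 1274 and 1265 in monoculture, 1034, 858 and 869.7 in co-culture and 1300.1, 1571 and 1377 with TGF-β. The order of the 3 groups did not overlap, with co-culture lowest and TGF-β highest. Ndufaf7 fell by 0.44 ± 0.11 against monoculture (adjusted p = 0.00820) and by 0.62 ± 0.11 against TGF-β (adjusted p = 9.83e-04), both in all 21 alternatives. The TGF-β value against monoculture was 0.18 ± 0.11 (adjusted p = 0.515). None of the other 6 assembly factors named Ndufaf was called, and Ndufaf4 was nearest in co-culture (0.30 ± 0.12, adjusted p = 0.0735).

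Ndufb4, an accessory subunit of the membrane arm, had 862, 639 and 928 in monoculture, 1110.1, 979 and 1178 in co-culture and 1142, 1289 and 973 with TGF-β, with the monoculture libraries below the other 6. It rose by 0.44 ± 0.15 in co-culture (adjusted p = 0.0417). The call was lost without monoculture 2, co-culture 1, co-culture 3 or TGF-β 1 (adjusted p 0.0618 to 0.187), by edgeR, without the filter and with the replicate block (adjusted p = 0.0527). Its processed pseudogene copy Ndufb4c shares 37% of its 50-base stretches. Ndufb6, in the same arm, was lower in co-culture than with TGF-β (-0.37 ± 0.13, adjusted p = 0.0432), a call that 8 of 21 alternatives kept and that was lost without monoculture 1, monoculture 2, monoculture 3, co-culture 1, co-culture 2, co-culture 3, TGF-β 1 or TGF-β 2 (adjusted p 0.0528 to 0.195) and on nuclear reads (adjusted p = 0.135). It shares 34.1% of stretches with the overlapping gene Smim27. Ndufa2 had the highest level per kilobase of merged exons among complex I nuclear subunits (mean 10560.0 over the 9 libraries, complex median 3362). Merged exons and longest coding transcript had 572 bases each in Ndufa2 but 4522 and 623 in Ndufb7, so this rank depends on the length used.

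Core and accessory subunits of complex I differed in their medians with TGF-β. The 7 nuclear core subunits had a median of 0.10 (from -0.11 for Ndufs1 to 0.26 for Ndufs8). The 29 accessory subunits had a median of 0.28, and all 29 had a positive value, led by Ndufa1 (0.72 ± 0.29, adjusted p = 0.284). None of these was called. Values by transcript length are given below.

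Complex II, succinate dehydrogenase, belongs also to the citric acid cycle and is wholly nuclear. Its flavoprotein Sdha had 23167, 22086 and 18720.2 in monoculture, 21495, 20973 and 20589 in co-culture and 19286, 20139 and 19982 with TGF-β. The fold changes of Sdha in co-culture and with TGF-β were -0.02 and -0.10. Those of the iron-sulfur subunit Sdhb were 0.00 and 0.17. Those of the membrane anchor Sdhd, the highest of the 4 per kilobase of merged exons, were 0.06 and 0.22. Merged exons and longest coding transcript had 1231 bases each in Sdhd but 2239 and 1142 in Sdhb, so this rank depends on the length used. No gene of the 4 was called against monoculture, where 30.8% of all genes were called in co-culture and 2.52% with TGF-β. The other anchor, Sdhc, had 10145, 8252 and 9037 in monoculture, 7273, 7286 and 8697 in co-culture and 9631, 10441 and 8631 with TGF-β. It was lower in co-culture than with TGF-β (-0.30 ± 0.10, adjusted p = 0.0451) although 1 co-culture library overlapped. The call was kept in 10 of 21 alternatives and lost without monoculture 3, co-culture 1, co-culture 2, TGF-β 1 or TGF-β 2 (adjusted p 0.0583 to 0.167). On nuclear reads its adjusted p was 0.147, and with the replicate block 0.0682.

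Complex III passes electrons from ubiquinol to cytochrome c. No nuclear member of it was called in co-culture against monoculture by limma (0 of 8, beside 30.8% of all genes). Of these 8, 3 had an unadjusted p under 0.05. The single member called with TGF-β, where 2.52% of all genes were called, was the small complex III subunit Uqcr10. It had 4101, 3383 and 4782 in monoculture, 4935, 4829 and 5163 in co-culture and 5937, 6368 and 5063 with TGF-β. TGF-β and co-culture both lay above monoculture without overlap. Uqcr10 rose by 0.51 ± 0.12 with TGF-β (adjusted p = 0.0374) and had 0.30 ± 0.12 in co-culture (adjusted p = 0.0742). The TGF-β call held in 7 of 21 alternatives and was lost without monoculture 1, monoculture 2, co-culture 1, co-culture 2, TGF-β 1 or TGF-β 2 (adjusted p 0.0527 to 0.173). On nuclear reads its adjusted p was 0.0607, and with the replicate block 0.0640. Uqcrq, which helps hold cytochrome b, was lower in co-culture than with TGF-β (-0.36 ± 0.11, adjusted p = 0.0218); the call was lost without co-culture 1, co-culture 2 or TGF-β 2 (adjusted p 0.0666 to 0.0987) and on nuclear reads (adjusted p = 0.114). Uqcrb stood highest per kilobase, at 15260 on average.

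Complex V had a median of 0.02 in co-culture over 15 nuclear members, from -0.014 without co-culture 3 to 0.039 without monoculture 1. Atp5d, the delta subunit of the rotor stalk, had 10452, 11140.3 and 10169 in monoculture, 8602, 8935 and 8959 in co-culture and 10488, 11866 and 10215 with TGF-β, with co-culture below all other libraries. Atp5d fell by 0.26 ± 0.08 against monoculture (adjusted p = 0.0228), a call lost without monoculture 2, co-culture 1 or co-culture 2 (adjusted p 0.0592 to 0.0921) and on nuclear reads (adjusted p = 0.160). Against TGF-β it was lower by 0.29 ± 0.08 (log2; adjusted p = 0.0143), lost without co-culture 1 or TGF-β 2 (adjusted p 0.0662 to 0.0664) and on nuclear reads (adjusted p = 0.139). Atp5j2, a small membrane subunit, was also lower in co-culture than with TGF-β (-0.28 ± 0.08, adjusted p = 0.0236), lost without co-culture 2 or TGF-β 2 (adjusted p 0.102 to 0.123) and on nuclear reads (adjusted p = 0.189). The values of all 15 were negative in that comparison, from -0.47 for Atp5e to -0.04 for Atp5k. Atp5a1, the alpha subunit of the F1 head, had the highest level per kilobase of merged exons of any nuclear member (17878). Its co-culture fold change was -0.09 ± 0.09. Merged exons and longest coding transcript had 3135 and 2674 bases in Atp5a1 but 1550 and 765 in Cox4i1, so this rank depends on the length used.

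The 13 mitochondrially encoded genes are transcribed as long precursors and cut at the transfer RNAs between them. All 13 had a positive fold change in co-culture on the log2 scale of the test (median 0.21). Of them 2 rose (15.4%, beside 30.8% of all genes called). In 5 of the 13 the direction turned with the scale. Their mean normalized count was lower in co-culture than in monoculture, with 363 against 442 for mt-Co2, 299 against 379.7 for mt-Co3, 276 against 336 for mt-Atp6, 49.2 against 67.3 for mt-Nd4l and 40.6 against 48.1 for mt-Atp8, and edgeR and DESeq2 gave them negative fold changes. mt-Nd1, a core subunit of complex I, had 169947, 168030.2 and 174498 in monoculture, 220048, 195686 and 300982 in co-culture and 235560.4, 180228 and 179179.7 with TGF-β. mt-Nd1 rose by 0.46 ± 0.15 (adjusted p = 0.0312), and its TGF-β value was 0.20 ± 0.15 (adjusted p = 0.592). mt-Nd2, the next protein-coding gene on the chromosome, had 69972, 61375 and 59633 in monoculture, 85253, 75144 and 129924 in co-culture and 89962, 68126 and 64053 with TGF-β and rose by 0.57 ± 0.19 (adjusted p = 0.0438). In both genes the co-culture libraries lay above monoculture, and co-culture 3 was the highest of the 9. Without co-culture 3 the values were 0.28 for mt-Nd1 (adjusted p = 0.136) and 0.33 for mt-Nd2 (adjusted p = 0.0996). The mt-Nd1 call was lost without monoculture 1, monoculture 2, monoculture 3 or co-culture 3 (adjusted p 0.0589 to 0.136). The mt-Nd2 call was lost without monoculture 2, monoculture 3, co-culture 1, co-culture 3, TGF-β 2 or TGF-β 3 (adjusted p 0.0600 to 0.119).

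mt-Nd5 and mt-Cytb, the cytochrome b of complex III, also lay above monoculture in all 3 co-culture libraries. mt-Nd5 had 0.40 ± 0.15 (adjusted p = 0.0643) and mt-Cytb 0.41 ± 0.18 (adjusted p = 0.111). The values of mt-Nd6, the only member on the other strand, and of mt-Nd4 and mt-Nd3 were 0.35, 0.20 and 0.17. mt-Co1, the catalytic subunit of complex IV, had 406762, 484132 and 435622 in monoculture, 474828, 403094 and 609286 in co-culture and 560172, 416308 and 430795 with TGF-β, a value of 0.15 ± 0.15. The ratio of mt-Nd1 to mt-Co1 counts was 0.463 to 0.494 in co-culture. It was 0.347 to 0.418 in monoculture and 0.416 to 0.433 under TGF-β, below every co-culture library.

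Levels of the mitochondrially encoded genes fell into 2 ranges. Per kilobase, mt-Co1, mt-Nd1, mt-Cytb, mt-Nd5, mt-Nd2, mt-Nd4, mt-Nd6 and mt-Nd3 had means of 15816 to 303560.0 over the 9 libraries. mt-Co2, mt-Co3, mt-Atp6, mt-Nd4l and mt-Atp8 had 197 to 561. A stretch of mouse chromosome 1 carries annotated pseudogene copies of mitochondrial genes. Of the 50-base stretches in a gene, the share also found in another annotated transcript was 100% for mt-Co2, 99.9% for mt-Co3, 99.5% for mt-Atp6, 98.8% for mt-Nd4l and 98.0% for mt-Nd3. It was 62.2% for mt-Nd4, 51.1% for mt-Co1, 8.19% for mt-Nd2, 7.61% for mt-Nd5 and 0% for mt-Nd1, mt-Nd6, mt-Cytb and mt-Atp8. mt-Atp8 has no annotated copy of its own and lies between mt-Co2 and mt-Atp6, partly within the latter. How reads that match both places were assigned is not stated.

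The first 75 bases of mt-Co2 and mt-Nd3 are shown beside their copies on chromosome 1 because these genes shared nearly all stretches and differed in level (GENCODE M21 transcripts, mm10). A base that differs between gene and copy is in capitals.
mt-Co2, chrM:7013-7087, plus strand: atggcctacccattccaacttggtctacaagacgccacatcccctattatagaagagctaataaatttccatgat
Gm28661, chr1:24615491-24615565, minus strand: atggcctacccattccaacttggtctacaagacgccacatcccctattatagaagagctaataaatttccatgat
mt-Nd3, chrM:9459-9533, plus strand: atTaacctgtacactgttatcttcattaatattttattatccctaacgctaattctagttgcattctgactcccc
Gm28438, chr1:24613045-24613119, minus strand: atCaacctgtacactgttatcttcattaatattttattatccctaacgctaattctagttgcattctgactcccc
Over 681 aligned bases mt-Co2 and Gm28661 had 0 differing bases, and mt-Nd3 and Gm28438 had 1 over 345. mt-Nd3 had 4395 to 7670.3 normalized counts. mt-Co2 had 974, 211 and 142 in monoculture, 299, 387 and 403 in co-culture and 326, 494 and 216 with TGF-β, highest in monoculture 1. The copies themselves were low, with 88.6 to 205 for Gm28661 and 3.25 to 12 for Gm28438. Monoculture 1 was also the highest library for mt-Co3 (783), mt-Atp6 (749), mt-Nd4l (159) and mt-Atp8 (119). Without it, the median co-culture fold change of the 13 genes was 0.46 in place of 0.21.

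**Figure D3:**
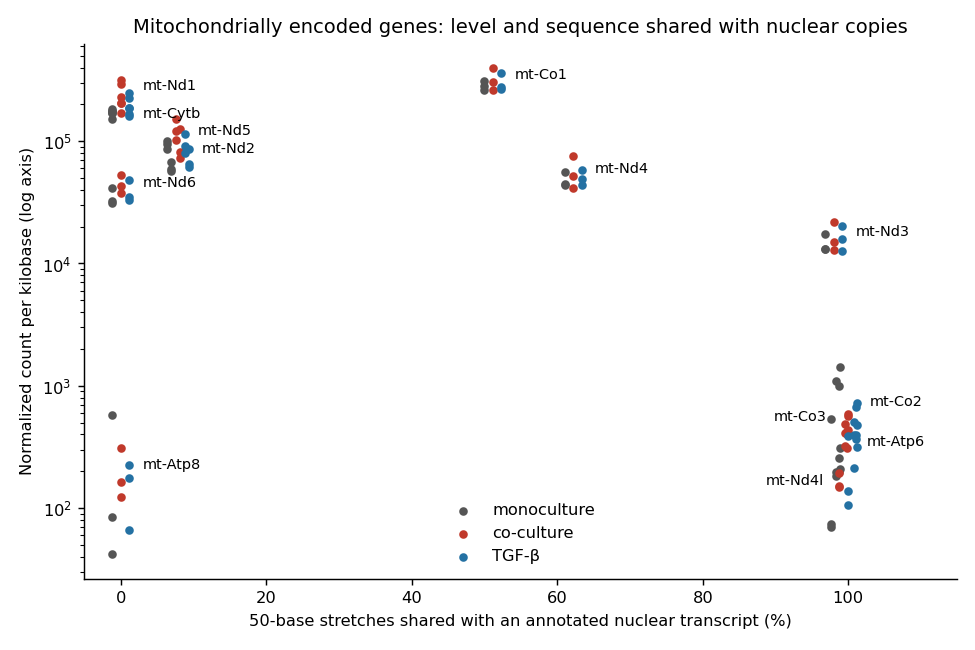
Level per kilobase of exon (y axis, log axis) of the 13 mitochondrially encoded genes in each library against the share of their 50-base stretches also present in another annotated transcript (x axis, groups offset sideways). Points are libraries, colored by group. The 4 genes with the lowest level at the right, at 98.8% to 100%, lie far below the genes with little shared sequence, while mt-Nd3 (98.0%) and mt-Atp8 (0%) depart from that order.

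The 93 nuclear members took 0.573, 0.607 and 0.614% of reads in monoculture, 0.617, 0.633 and 0.632% in co-culture and 0.660, 0.690 and 0.610% with TGF-β. The monoculture libraries lay below the co-culture ones and overlapped TGF-β. The 13 mitochondrially encoded members took 1.03 ± 0.11% in monoculture, 1.32 ± 0.28% in co-culture and 1.07 ± 0.20% with TGF-β (mean ± SD, n = 3 each), with overlapping ranges. Per read of a nuclear member, the monoculture libraries held 1.59 to 1.85 such reads. Co-culture had 1.72 to 2.57 and TGF-β 1.28 to 1.95, so the groups overlapped. The share of mitochondrial ribosomal RNA was lowest in the monoculture libraries (10.4 to 11.5%), with 12.3 to 15% under co-culture and 11.5 to 14.9% under TGF-β. When libraries were scaled to nuclear reads alone, the median of all genes in co-culture moved from 0.03 to 0.10, and 18 members rose and 2 fell. The share of all genes called on this scale is not reported here, so these counts are not read as a result about the members.

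**Figure D4:**
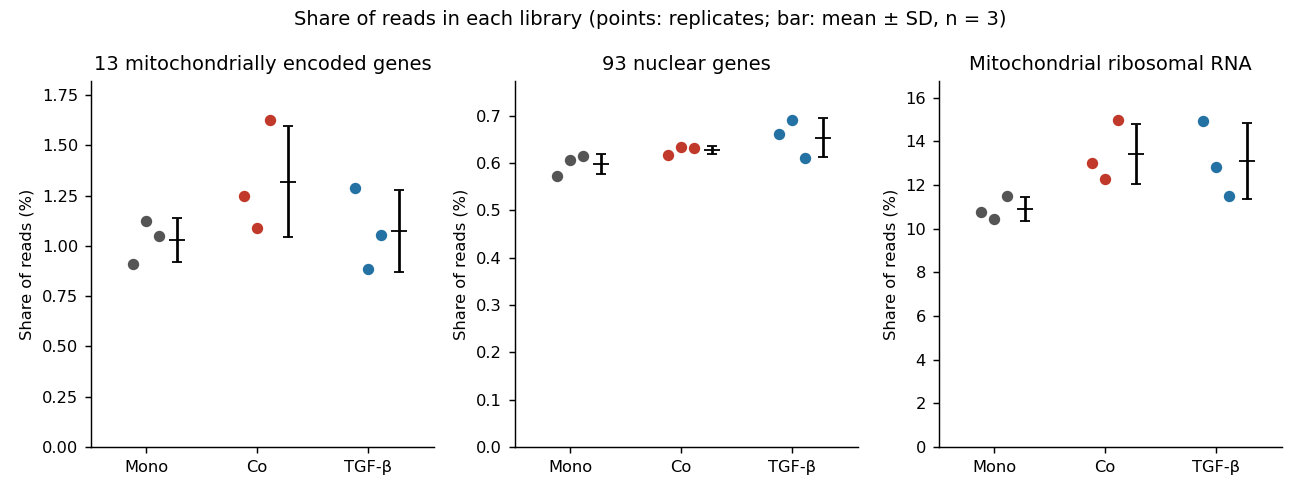
Share of reads (y axis, percent, from 0) on the 13 mitochondrially encoded members, the 93 nuclear members and the mitochondrial ribosomal RNA in each library, by group (x axis). Points are replicates and bars give mean ± SD, n = 3. The mitochondrially encoded share spans 0.883 to 1.63%, with overlap between groups, and the nuclear share 0.573 to 0.690%.

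The positive TGF-β values were unevenly spread over libraries and transcript lengths. For 49 nuclear members with a transcript under 1000 bases the median TGF-β fold change was 0.31, and for 41 longer ones 0.16; in co-culture these medians were 0.19 and 0.01. Median deviations of the short members from the mean of all libraries were 0.19, 0.39 and -0.05 for TGF-β 1 to 3 and -0.03, -0.37 and -0.11 for monoculture 1 to 3. Monoculture 2 and TGF-β 2 thus stood farthest apart. Across 90 nuclear members, deviation and log2 transcript length had a Pearson correlation of 0.50 in monoculture 2 and -0.49 in TGF-β 2, and between -0.27 and 0.14 in the other 7 libraries (a description across genes, which are not replicates). Cytosolic ribosomal protein genes deviated by -0.27 and 0.43 in these 2 libraries. Atp5k, with a transcript of 371 bases, shows the spread, with 5668, 1316 and 2463 in monoculture, 3753, 4624 and 5836 in co-culture and 5159, 7012 and 3013 with TGF-β.

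Without TGF-β 3, 29 members rose, and 27 were lower in co-culture than with TGF-β. Without TGF-β 2 these counts were 0 and 3. With monoculture 2 and TGF-β 2 both left out, an alternative added after the data were seen, 0 members rose with TGF-β and 4 were lower in co-culture than with TGF-β. The shares of all genes called in these fits are not reported here, so a shift of all genes cannot be told apart from one of the members. The part of transcript length in the TGF-β values was not tested.

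**Figure D5:**
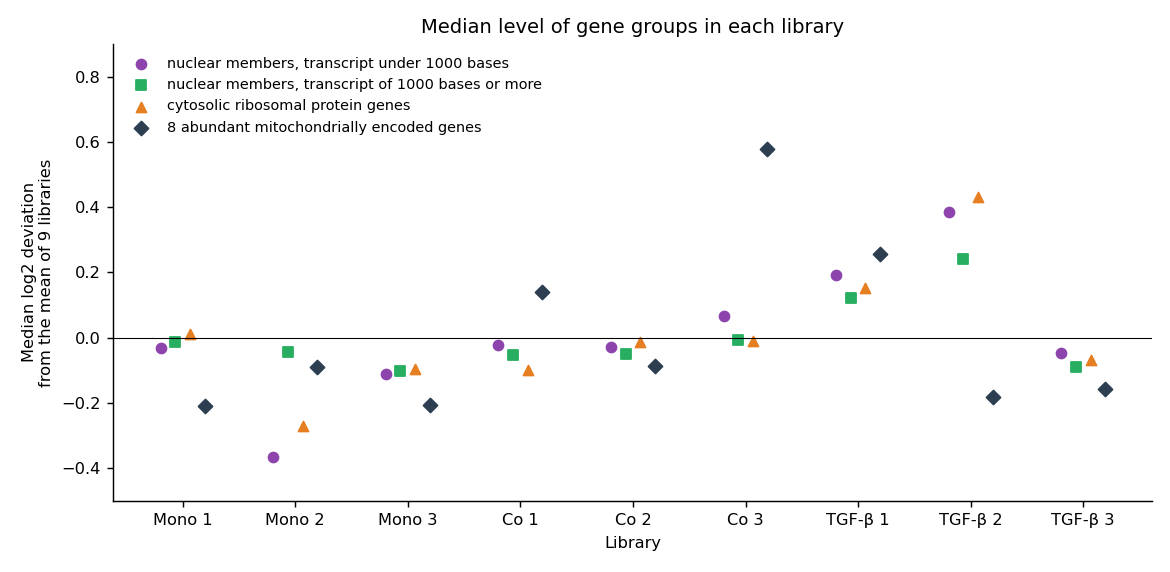
Median log2 deviation from the mean of the 9 libraries (y axis) in each library (x axis) for nuclear members with short and long transcripts, cytosolic ribosomal protein genes and 8 abundant mitochondrially encoded genes. Short members and ribosomal protein genes are lowest in monoculture 2 (-0.37 and -0.27) and highest in TGF-β 2 (0.39 and 0.43), and the mitochondrial genes are highest in co-culture 3 (0.58).

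Promoters of nuclear respiratory genes are known for sites of NRF1, of the ETS factor GABP and of YY1. RefSeq promoter sequences, from 250 bases before to 50 after the start (GRCm38.p6), were found for 75 of the 93 nuclear members. The core motif of NRF1, on either strand, occurred in 24% of these and in 4.78% of all 27025 promoters. The ETS motif CCGGAAG occurred in 21.3% beside 9.12%, and the YY1 motif AANATGGC in 22.7% beside 6.23%. At least 1 of the 3 was present in 60%, beside 18%. Promoters of 3 members that were called in co-culture are printed upstream of both the RefSeq and the GENCODE start, as examples with and without a match; NRF1 matches are in capitals.
Cox5a, chr9:57521082-57521231, plus strand: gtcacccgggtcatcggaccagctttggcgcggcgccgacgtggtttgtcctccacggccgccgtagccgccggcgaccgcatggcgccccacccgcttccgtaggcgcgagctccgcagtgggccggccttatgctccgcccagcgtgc
Ndufb4, chr16:37654454-37654603, minus strand: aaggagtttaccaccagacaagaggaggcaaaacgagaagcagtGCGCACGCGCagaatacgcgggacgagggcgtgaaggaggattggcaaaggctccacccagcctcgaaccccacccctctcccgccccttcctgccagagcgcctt
Cox6a1, chr5:115348982-115349131, minus strand: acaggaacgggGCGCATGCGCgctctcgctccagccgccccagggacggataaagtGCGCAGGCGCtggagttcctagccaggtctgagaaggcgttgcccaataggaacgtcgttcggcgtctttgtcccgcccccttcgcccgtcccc
The printed stretch of Cox5a, which rose, held 0 of the motifs. That of Ndufb4, which also rose, held 1 NRF1 match, and that of Cox6a1, which fell, held 2. In the full window Cox5a had 0 of the 3 motifs, Ndufb4 had 3 NRF1 matches and Cox6a1 had 2 NRF1 and 1 ETS match. Ndufs8, which rose, had 1 ETS and 1 YY1 match in its full window, and Ndufaf7 and Atp5d, which fell, had 0 of the 3.

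Regulators of these genes were followed as a list of their own. Of 13 tested, 4 rose and 0 fell in co-culture (median 0.19); the share called equals the 30.8% of all genes. Epas1, which encodes the oxygen-sensitive factor HIF-2α, had 1417, 1266 and 1012 in monoculture, 2276, 2414 and 2619 in co-culture and 837, 1082 and 1049.9 with TGF-β and rose by 0.99 ± 0.14 (adjusted p = 5.93e-05). Each co-culture library was above all others. Creb1, a cAMP-responsive factor, rose by 0.51 ± 0.08 (adjusted p = 1.77e-04). Hif1a, for HIF-1α, rose by 0.48 ± 0.09, and the fourth, Gabpa, the DNA-binding part of GABP, by 0.27 ± 0.08. With TGF-β 0 of the 13 were called by limma, and 2 had an unadjusted p under 0.05. Against TGF-β, 6 were higher in co-culture and 0 lower, beside 13.4% and 11.9% of all genes. Epas1 (1.30 ± 0.14), Hif1a (0.66 ± 0.09) and Creb1 (0.46 ± 0.08) led these 6.

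Electrons reach the chain from the citric acid cycle and pass along ubiquinone and cytochrome c. Of 20 tested genes for ubiquinone synthesis and electron carriers, 0 rose and 4 fell in co-culture, where 15.9% of all genes rose and 15% fell. Coq2, which joins the ring and tail of ubiquinone, fell by 0.52 ± 0.10 (adjusted p = 9.48e-04), the atypical kinase gene Adck3 by 0.91 ± 0.20 and the hydroxylase gene Coq6 by 0.45 ± 0.13. In the citric acid cycle and pyruvate entry, 1 of 26 rose and 5 fell, beside the same shares of all genes. Pcx, for pyruvate carboxylase, had 898, 848 and 786 in monoculture, 406, 336 and 258 in co-culture and 699, 732 and 752 with TGF-β and fell by 1.34 ± 0.16 (adjusted p = 1.36e-05). Cs, the citrate synthase gene, fell by 0.33 ± 0.08, while Idh2, the mitochondrial isocitrate dehydrogenase that makes NADPH, rose by 0.34 ± 0.08. With TGF-β neither list had a call by limma, with 1 and 4 genes at an unadjusted p under 0.05. Against TGF-β, co-culture had 0 of the first list higher and 4 lower (Adck3 -0.96, Coq2 -0.45 and Coq6 -0.51 of smallest p), and 1 of the second higher (Idh2, 0.34) and 4 lower, among them Pcx (-1.13) and Irg1, the itaconate-forming enzyme (-0.76). Of all genes, 13.4% were higher and 11.9% lower in that comparison.

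Assembly factors outside the symbol rule had 1 rise (Coa5, 0.42 ± 0.08) and 2 falls (Cox15, -0.31 ± 0.08; Nubpl, -0.37 ± 0.13) among 37. For this list and those that follow, 15.9% of all genes rose and 15% fell in co-culture. Factors for mitochondrial DNA and RNA had 3 rises and 3 falls among 33, among them the topoisomerase Top1mt (0.47 ± 0.13) and Hsd17b10, a part of the mitochondrial ribonuclease P (-0.36 ± 0.11). Among 13 carriers and porins the adenine nucleotide carrier Slc25a4 fell (-0.42 ± 0.09), its paralog Slc25a5 rose (0.37 ± 0.10) and the uncoupling protein gene Ucp2 rose (0.49 ± 0.12). Mitochondrial ribosomal protein genes gave 6 rises and 3 falls of 79. Mrpl52 led them with 1.76 ± 0.13 in co-culture (adjusted p = 3.08e-07) and 0.81 ± 0.13 with TGF-β (adjusted p = 0.00551). Of 7 tested mitochondrial transfer RNA genes 3 rose in co-culture (mt-Tw, mt-Tq and mt-Tp, by 0.76 to 0.97), neither of the 2 ribosomal RNA genes was called, and of 83 cytosolic ribosomal protein genes Rpl22l1 rose (0.47) and Rpl10 fell (-0.36).

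The same lists were compared between co-culture and TGF-β, where 13.4% of all genes were higher in co-culture and 11.9% lower. Assembly factors had Coa5 higher (0.41) and Coa3 lower (-0.46). Mitochondrial DNA and RNA factors had 1 higher (Top1mt, 0.43) and 3 lower, among them Hsd17b10 (-0.39) and Mterf2 (-1.07). Slc25a4 was the 1 carrier lower (-0.41). Mitochondrial ribosomal protein genes had 1 higher (Mrpl52, 0.95) and 8 lower, led by Mrpl54 (-0.43) and Mrpl14 (-0.49). Cytosolic ribosomal protein genes had 0 higher and 11 lower, among them Rpl10 (-0.41) and Rps27a (-0.52). With TGF-β against monoculture their median was 0.28 with 0 called by limma and 33 at an unadjusted p under 0.05.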

How the data were processed

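RNA of sorted macrophages was sequenced in 9 libraries, 3 per group, made with a stranded kit per the labels' protocols. The authors deposited 1 signal value per gene and library, and the values show each library's counts scaled by a single factor (100% came out as whole reads within 0.05). STAR 2.7.3, bcl2fastq 2.20, R 3.6.1, DESeq2 1.24.0 and build mm10 are named in the submitters' processing notes, with no roles. The counting program, its use of strand and the annotation are not given in the sources used here, so reads of overlapping genes cannot be told apart with certainty.

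Genes with at least 10 normalized counts in at least 3 libraries were tested (16328 of 24607) with limma 3.58.1 in R 4.3.3 (trend and robust) on log2 of the value plus 10, fitting all 9 libraries together by group alone, with Benjamini-Hochberg adjustment. Alternatives were edgeR 4.0.16 and DESeq2 1.42.0 on the recovered reads, other scalings, filters and an added 1, a replicate block, and each library left out in turn. The code was tested on simulated data. The upper limit given for a gene without reads covers counting error only. The SE and SD values measure the spread between libraries. No sum over members was given a p-value.

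Gene models were GENCODE M21, to which all 106 members matched (1, Atp5sl, under another symbol). Transcript sequences were compared in stretches of 50 bases. Members and gene lists were chosen with earlier results of these data known. Named genes are the mitochondrially encoded members, up to 8 called members per direction and comparison, the Sdh genes, isoform pairs, the highest nuclear member per complex and up to 3 called genes per list and comparison; some genes that this rule picks are not reported here. Others, among them AA467197, Mir147, Gm26631, Atp5k, Atp5e, Ndufa1, Ndufs1, Ndufaf4, the Y-linked genes and the pseudogene copies, were named after their values were seen. Protein sequences were not used here.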

Additional observations from a re-analysis of the deposited data

How the results depend on the processing

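Of the counts, medians and shares recomputed under each alternative, 447 values stayed within the spread or within 1.5 times the main count and 45 moved; none of the named genes reversed its direction while called. For the count of members that rose with TGF-β (1), edgeR with either scaling, no filter on low values, only the 2 groups compared and the replicate block each gave 0, and DESeq2 gave 8. For co-culture against TGF-β, DESeq2 gave 2 higher and a filter at 50 gave 0 higher, as Ndufa4l2 then left the test. Scaling to nuclear reads gave 18 higher and 2 lower in co-culture against monoculture and 2 higher and 3 lower against TGF-β, and it moved the medians of complex II and complex V to 0.072 and 0.097 and that of complex V against TGF-β to -0.072. Leaving out single libraries gave 3 to 15 members higher in co-culture, 0 to 29 higher with TGF-β, 1 to 2 higher and 3 to 27 lower in co-culture than with TGF-β; the mitochondrially encoded median in co-culture ranged from 0.13 to 0.46, and the complex V median from 0.12 to 0.33 with TGF-β and from -0.30 to -0.082 for co-culture against TGF-β. With the 2 added pairs of libraries left out (monoculture 2 or monoculture 1, each with TGF-β 2), 0 members rose with TGF-β and 4 and 3 were lower in co-culture than with TGF-β; the second pair also gave 20 higher and 7 lower in co-culture against monoculture. Shares over other totals were 1.15% for the mitochondrially encoded members in monoculture (outside mitochondrial ribosomal and transfer RNA) and 0.679, 0.736 and 0.762% for the nuclear members (of nuclear reads) in monoculture, co-culture and TGF-β. Same-numbered libraries correlated between -0.15 and 0.37 in their deviations and not all above 0.1. The replicate number was therefore not taken as a pairing, although replicate 1 was male in every group. With the replicate block 6 members rose and 5 fell in co-culture against monoculture, and 1 was higher and 8 lower in co-culture than with TGF-β. The cause of these shifts was not tested, and the shares of all genes called under these alternatives are not reported here. Depth limits the low isoforms: Ndufa4l2, Cox4i2, Cox6a2 and Cox6b2 rest on few reads.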
